A study of Mus musculus with 10 samples.

Results

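Messenger RNA of 3 libraries labelled as adult cortical endothelial cells (ECs) was compared gene by gene with that of 3 libraries labelled as cortical ECs of the embryonic stage E13.5. ECs line blood vessels, and in the brain they form the blood-brain barrier (BBB). Adult control and E13.5 mice are both labelled wild type C57BL/6J and both groups are labelled control, without added Wnt3a or MS-275. The study's methods describe cortical tissue freed of the meninges and pooled, isolation of ECs by a published method and plating on type-1 collagen. Growth in EC medium to the second passage and a check of purity with CD31 and isolectin B4 are also described. The methods give the adults as males of 2 to 3 months, while the study's results text gives 3 to 4 months, and the study's checklist gives the sex of the embryos as not determined. The libraries of a group are labelled biological replicates, which the methods define as the pooled ECs of 1 litter. A gene was a member when its normalised count, the deposited value, was 10 or more in at least 2 of the 6 libraries. This held for 14763 of the 21612 genes of the table, and 6 of the 10 libraries of the series entered the comparison. Of the 6849 genes not tested, 3342 had no read in the 6 libraries.

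The E13.5 libraries went against their label. The counts of 12 endothelial markers summed to 244333 to 328940 in adult control libraries and to 900.04 to 1399 in E13.5 libraries, where 7 of the 12 reached a mean of 10. Markers of other cell types ran the other way. For 10 neuron markers the sums were 8.67 to 16.3 in adult control and 10718 to 13547 in E13.5, for 10 mural cell markers 87.6 to 104 in adult control and 30991 to 50351 in E13.5, for 10 fibroblast markers 161 to 280.0 in adult control and 9607 to 26611 in E13.5, and for 10 glial markers 4138 to 5347 in adult control and 15544 to 20805 in E13.5. The 10 neural progenitor markers summed to 110779 to 152888 in adult control and 137864 to 144054 in E13.5. This sum holds Vim, among the 10 genes with the most counts in both groups, and does not describe the list. In adult control 2 of the 10 progenitor markers reached a mean of 10, against 10 of 10 in E13.5. No read in any adult control library was found for 3 neuron, 3 mural, 4 fibroblast, 3 glial and 6 of 10 neural progenitor markers, while in E13.5 1 mural marker was without a read. The groups therefore differed in age and in the cell types whose markers they held, and these cannot be told apart in any difference given here. In RNA from many cells at once, fewer cells of a type and less RNA per cell also cannot be told apart. The names adult control and E13.5 stand for the labels.

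Depth was alike, with 27074839 to 31763483 reads on genes in adult control libraries and 26035690 to 31750178 in E13.5 libraries, but 13948 to 14556 genes had a read in adult control libraries and 16634 to 16834 in E13.5 libraries. In each group 1 library stood apart. Adult control 1 and 2 correlated across genes at r = 0.993 and each with adult control 3 at 0.957 to 0.962, while E13.5 2 and 3 correlated at 0.993 and each with E13.5 1 at 0.963 to 0.965. Between the groups r was 0.646 to 0.676. The first principal component held 91.5% of the variance and separated the groups. Genes are not independent replicates, so these correlations are descriptions.

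As background, ECs, neurons, glia and the cells around vessels all carry the same genome and share the genes that every cell needs, for translation, protein folding, energy and the cytoskeleton. Cell types differ mainly in transcription factors, in receptors and channels, and in which member of a gene family they use, since many families hold a form found in the nervous system beside a form found in most tissues. A comparison across the whole transcriptome therefore has a shared part, a part held by 1 of the cell types alone, and a part in which related genes stand in for each other.

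The groups differed in about every other gene tested. In limma, with Benjamini-Hochberg adjustment over all 14763 genes, 7401 genes (50.1%) passed the call, which asked for an adjusted p under 0.05 together with a log2 difference beyond 0.2 either way. Of these, 2717 (18.4%) were higher and 4684 (31.7%) lower in adult control libraries. The 3 adult values lay wholly above or wholly below the 3 E13.5 values in 9365 genes (63.4%), above in 3647 and below in 5718. Of these 9365 genes, 2078 were not called, and 895 genes had an unadjusted p under 0.05 without being called. The p-values measure the spread between libraries of a group, pooled over all 10 libraries of the series in 4 groups. With the 6 libraries fitted alone, 7937 genes were called. Under quantile normalisation 4182 genes were higher and 3850 lower, so that 52.1% of the calls were higher in adult control, against 36.7% with the deposited scaling. That scaling moved the median log2 difference of all genes by 0.25, and equal totals moved it by -0.13. Of the 7401 calls, 6220 (84.0%) were kept under quantile normalisation and 20 were reversed.

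The excess of lower genes was largest among the genes with few counts. Of the genes in the lowest 3691 by mean, at 157 normalised counts or less, 372 were higher and 2001 lower. Of the next 3691, at a mean of up to 686, 571 were higher and 1095 lower. Of the 3690 above these, 770 were higher and 874 lower. Of the genes in the highest 3691, at a mean of 1853 or more, 1004 were higher and 714 lower. The filter fixes part of this, since 2546 genes passed it through E13.5 libraries alone and 424 through adult control libraries alone, and such genes are high in 1 group by the way they were chosen. Of the 11744 genes that passed in both groups, 2389 were higher and 2365 lower in adult control. The median log2 difference over all genes was -0.20, with quartiles of -1.45 and 0.46.

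The called differences were often large. More than 10-fold differences were fitted for 531 higher and 2397 lower genes, and more than 100-fold ones for 143 higher and 917 lower genes. No read was found in the adult control group for 1043 tested genes, and 469 of these had a mean of 100 or more in E13.5. No read was found in the E13.5 group for 57 genes, of which 20 had a mean of 100 or more in adult control. In the share of all counts, the genes called higher took 33.5% to 37.7% of an adult control library and 13.02% to 14.7% of an E13.5 library. The genes called lower took 7.90% to 8.96% of an adult control library and 26.5% to 28.8% of an E13.5 library. The genes that were not called took 54.4% to 57.5% of an adult control library and 58.1% to 58.7% of an E13.5 library, the greater part in every library.

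**Figure D1:**
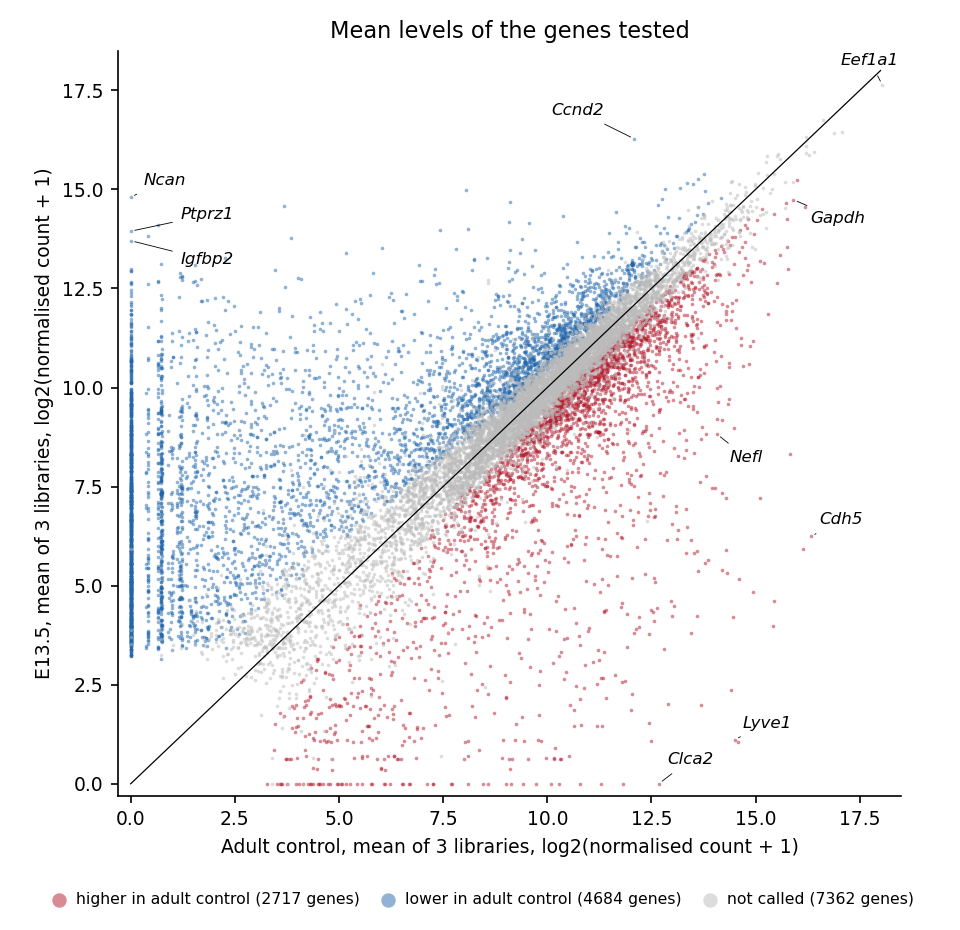
Mean level of each of the 14763 genes tested, as log2(m + 1), in adult control (horizontal) and in E13.5 (vertical), where m is the mean normalised count over 3 libraries. Points are coloured by call, the line marks equal levels, and the column of points at the left edge shows the genes with no read in adult control, which outnumber those along the lower edge with none in E13.5.

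The genes of this and the next paragraph were picked for having no read in 1 group and passed the filter through the other group alone. Their direction was set by that choice, so their p-values are no separate support. Clca2, of the chloride channel accessory family, had the most counts among the genes with no read in E13.5. Its normalised counts were 7420.4, 9159 and 3076 in adult control libraries, against 0, 0 and 0 in E13.5 libraries. Against a floor of 3 reads over the E13.5 group, a normalised count of 0.867, it was at least 7556-fold higher in adult control (limma adjusted p = 1.5e-06). Chil5, a chitinase-like protein of mouse, followed with 2975, 2874 and 4985 in adult control libraries, against 0, 0 and 0 in E13.5 libraries. It was at least 4165-fold higher (limma adjusted p = 1.3e-07), with adult control 3 the highest library for Chil5 and the lowest for Clca2. Dipk2b had 1031, 1165 and 1533 in adult control libraries, against 0, 0 and 0 in E13.5 libraries, and was at least 1434-fold higher (limma adjusted p = 2.1e-05).

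In the other direction, Ncan, the proteoglycan neurocan of brain matrix, had no read in adult control libraries and 23307, 30719 and 31809 normalised counts in E13.5 libraries. Against 3 reads over the adult control group, a normalised count of 0.952, this was at least 30049-fold lower (limma adjusted p = 6.8e-08). Ptprz1, a receptor phosphatase of neural progenitors that is itself a proteoglycan, had 0, 0 and 0 in adult control libraries, against 8335, 19679 and 19294 in E13.5 libraries, at least 16561-fold lower (limma adjusted p = 3.9e-07). Igfbp2, a binding protein of insulin-like growth factors, had 0, 0 and 0 in adult control libraries, against 15127, 12958 and 12041 in E13.5 libraries, at least 14047-fold lower (limma adjusted p = 6.8e-08). All 3 genes were abundant in every E13.5 library. Fabp7, the fatty acid binding protein of radial glia, Lrp2, the endocytic receptor megalin, and Crabp1, which binds retinoic acid, had no adult read either. Fabp7 was at least 8565-fold lower (limma adjusted p = 6.8e-08), Lrp2 at least 8312-fold lower (limma adjusted p = 1.3e-07) and Crabp1 at least 8237-fold lower (limma adjusted p = 1.6e-07). Ptprz1, Megf10 (a receptor of astrocytes that engulfs cell remains) and Itgb8 (an integrin subunit of neural cells) were each lowest in E13.5 1.

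The promoters of these classes are described by their CpG content. CpG dinucleotides are rare in most of the mouse genome and dense at the start sites of many widely used genes. RefSeq promoters of build GRCm38.p6, from 250 bases before to 50 bases after the annotated start, were matched by symbol for 11429 of the genes tested. The median promoter held 4 CpG in the 15 matched genes with no read in E13.5 and an adult mean of 100 or more, 18 in the 356 matched genes with no read in adult control and an E13.5 mean of 100 or more, 22 in 452 matched genes that were near equal (95% interval of the log2 difference within 0.5 of 0 on both sides), and 20 in all 11429. The ratio of observed to expected CpG was under 0.4 in 80.0% of the promoters with no E13.5 read, in 25.6% of those with no adult read, in 4.65% of those of near-equal genes and in 17.6% of all. The classes were set by expression, so this is a description with no test. The 250 bases before the start are shown for the 2 genes with the most counts in each class that had an entry, since they show both the pattern and its exceptions, with each CpG in capitals and the sequence 5′ to 3′. Clca2 lies at chr3:145099107-145099356 on the minus strand, Chil5 at chr3:106032896-106033145 on the minus strand, Ncan at chr8:70120845-70121094 on the minus strand, Ptprz1 at chr6:22875252-22875501 on the plus strand, Canx at chr11:50325674-50325923 on the minus strand and Macf1 at chr4:123684361-123684610 on the minus strand.
Clca2: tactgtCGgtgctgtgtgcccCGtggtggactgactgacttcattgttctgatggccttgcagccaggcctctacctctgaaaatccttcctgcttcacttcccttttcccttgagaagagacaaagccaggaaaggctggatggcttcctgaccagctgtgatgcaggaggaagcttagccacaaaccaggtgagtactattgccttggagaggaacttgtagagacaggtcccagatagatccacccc
Chil5: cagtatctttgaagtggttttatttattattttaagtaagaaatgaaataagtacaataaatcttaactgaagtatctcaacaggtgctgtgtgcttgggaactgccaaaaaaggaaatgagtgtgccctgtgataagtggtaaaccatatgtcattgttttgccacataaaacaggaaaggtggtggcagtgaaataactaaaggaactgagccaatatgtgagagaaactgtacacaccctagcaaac
Ncan: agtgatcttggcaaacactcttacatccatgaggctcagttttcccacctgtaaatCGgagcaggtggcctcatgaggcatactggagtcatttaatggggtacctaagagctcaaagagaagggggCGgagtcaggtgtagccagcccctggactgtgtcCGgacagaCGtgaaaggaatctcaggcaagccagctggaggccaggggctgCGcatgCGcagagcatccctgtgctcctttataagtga
Ptprz1: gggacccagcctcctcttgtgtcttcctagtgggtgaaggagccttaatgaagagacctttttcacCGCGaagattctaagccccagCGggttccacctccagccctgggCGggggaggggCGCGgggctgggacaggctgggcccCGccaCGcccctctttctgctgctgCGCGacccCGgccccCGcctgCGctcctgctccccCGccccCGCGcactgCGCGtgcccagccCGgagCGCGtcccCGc
Canx: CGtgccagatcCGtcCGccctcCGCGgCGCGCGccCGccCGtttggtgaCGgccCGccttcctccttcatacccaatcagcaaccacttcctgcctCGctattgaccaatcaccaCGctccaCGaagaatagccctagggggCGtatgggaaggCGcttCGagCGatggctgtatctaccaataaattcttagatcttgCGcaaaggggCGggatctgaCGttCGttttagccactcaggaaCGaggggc
Macf1: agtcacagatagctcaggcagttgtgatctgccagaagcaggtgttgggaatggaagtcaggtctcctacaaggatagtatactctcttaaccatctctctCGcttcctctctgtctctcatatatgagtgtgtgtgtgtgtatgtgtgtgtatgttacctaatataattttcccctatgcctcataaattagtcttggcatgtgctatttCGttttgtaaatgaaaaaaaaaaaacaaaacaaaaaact
The adult genes Clca2 and Chil5 held 2 and 0 CpG in these bases, and the E13.5 genes Ncan and Ptprz1 held 6 and 22. Of the near-equal genes, Canx held 24 and Macf1 only 2, so a low count was not restricted to genes read in 1 group. Of several motifs searched, CCGGAAGT, a site of ETS factors, was searched on both strands. It was found in 0% of the 15 promoters with no E13.5 read and in 0.562% of those with no adult read. It was found in 14.8% of those of near-equal genes and in 7.59% of all. These letters hold a CpG, so their rate cannot be told apart from CpG content, and 15 promoters are few. In the 15, the CCAAT box, the E-box of proneural factors and the SOX site were more frequent than in all promoters. The GC box, the TATA box and the other motifs searched were less frequent or absent. A match is a description of the letters and not evidence of a bound factor.

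The most abundant transcripts were largely the same in both groups. Of the 10 genes with the most counts in each group, Eef1a1, Eef2, Vim, Fth1, Hsp90ab1, Actb, Actg1 and Ftl1 were in both, and 0 of the 8 were called in limma. Eef1a1 was called higher in DESeq2, Hsp90ab1 in edgeR, in DESeq2 and with the 6 libraries fitted alone, and Eef2 without adult control 3. Eef1a1, the elongation factor that carries transfer RNA to the ribosome, had 272647, 291461 and 245468 in adult control libraries, against 190396, 219922 and 202669 in E13.5 libraries (log2 difference of 0.40 ± 0.30 (SE), limma adjusted p = 0.3). It took more counts than any other gene in each of the 6 libraries. Actb, cytoplasmic actin, had 65436, 68077 and 95166 in adult control libraries, against 99926, 72655 and 71981 in E13.5 libraries (log2 difference of -0.10 ± 0.27 (SE), limma adjusted p = 0.78). Fth1, a subunit of ferritin, had 110386, 107232 and 83997 in adult control libraries, against 108078, 112728 and 112301 in E13.5 libraries (log2 difference of -0.15 ± 0.48 (SE), limma adjusted p = 0.81). The groups overlapped for Actb and Fth1, while the adult values of Eef1a1 lay above all E13.5 values.

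Ccnd2, a cyclin that drives the entry into S phase, was among the 10 genes with the most counts in E13.5 and not in adult control. It had 3755, 4007 and 5328 in adult control libraries, against 81067, 77541 and 79326 in E13.5 libraries, with a log2 difference of -4.20 ± 0.25 (SE), limma adjusted p = 1.7e-06. Both groups were tight and far apart. Nefl, the light neurofilament chain known from axons, went the other way with 20823, 21169 and 9861 in adult control libraries, against 512, 439 and 404 in E13.5 libraries and a log2 difference of 5.18 ± 0.42 (SE), limma adjusted p = 9.4e-06. It was lowest in adult control 3 among the adult libraries and still above every E13.5 library. Gapdh, a glycolytic enzyme used as a reference in many assays and named here after its values were seen, had 70622, 74072 and 39679 in adult control libraries, against 31298, 26248 and 24682 in E13.5 libraries. It was called higher (log2 difference of 1.12 ± 0.41 (SE), limma adjusted p = 0.047), but the call was lost with equal totals, under quantile normalisation and without any 1 library other than adult control 3.

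Genes were counted as near equal when the 95% interval of their log2 difference lay within 0.5 either way. This held for 532 genes (3.60%), of which 282 were among the highest 3691 by mean and 0 among the lowest 3691, where the intervals are wide. Among the 10 of them with the most counts were genes of translation, protein folding, protein degradation and the cytoskeleton. Eif4g2, a factor of translation initiation, had 39001, 36382 and 44194 in adult control libraries, against 38794, 43769.6 and 43503 in E13.5 libraries (log2 difference of -0.08 ± 0.17 (SE), limma adjusted p = 0.73). Canx, a chaperone of the endoplasmic reticulum, had 24049.8, 22084 and 28638 in adult control libraries, against 23284, 24333 and 23862 in E13.5 libraries (log2 difference of 0.06 ± 0.17 (SE), limma adjusted p = 0.81). Rpl13a, a protein of the large ribosomal subunit, had 21682, 22985 and 21195 in adult control libraries, against 21859, 23483 and 21204 in E13.5 libraries (log2 difference of -0.01 ± 0.15 (SE), limma adjusted p = 0.95), but the gene model Gm45713 overlaps it on the same strand and had nearly the same values, so the reads of the pair are uncertain. Vcp, an ATPase that extracts proteins for degradation, and Rps3, of the small ribosomal subunit, had log2 differences of 0.11 ± 0.14 and 0.09 ± 0.14 (SE). In these 5 genes the adult control and E13.5 values overlapped.

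Of 29 genes often used as references in such assays, 8 were higher, 2 lower and 3 near equal, with a median log2 difference of 0.40. That is 34.5% called, against 50.1% of all genes. Gusb, the lysosomal β-glucuronidase, had 4892, 5343 and 3672 in adult control libraries, against 1158, 779.5 and 819 in E13.5 libraries (log2 difference of 2.34 ± 0.22 (SE), limma adjusted p = 2.9e-05). Vps29, of the retromer that sorts endosomal cargo, had 4978, 5399 and 5627 in adult control libraries, against 2507, 2282 and 2253 in E13.5 libraries (log2 difference of 1.18 ± 0.15 (SE), limma adjusted p = 0.0002). The counts of calls depended on the scaling, with 13 higher and 2 lower in DESeq2, 5 and 3 with equal totals and 6 and 5 under quantile normalisation.

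The difference between the groups also depended on the chromosome. For the 5973 genes with a mean of 1000 or more over the 6 libraries, each library's log2 difference from the E13.5 mean was taken relative to the median over all chromosomes, and the median of a chromosome was then compared between libraries. In this set 1511 genes (25.3%) were higher and 1247 (20.9%) lower in adult control. Chromosome 18 stood lowest. Of its 177 genes, 13 were higher and 121 (68.4%) lower in adult control, and 156 (88.1%) lay below the genome's median. Its medians were -0.93, -0.91 and -0.90 in adult control libraries and -0.01, -0.00 and 0.04 in E13.5 libraries. The median of the contrast was -0.96, with quartiles of -1.25 and -0.52, and on a linear scale this is a ratio of 0.514. Chromosome 4 was the next lowest, with medians of -0.50, -0.49 and -0.52 in adult control libraries, 35 of 340 genes higher and 146 (42.9%) lower, and a median contrast of -0.52, a linear ratio of 0.695. The 3 adult libraries lay closely together on both chromosomes, adult control 3 included. The E13.5 libraries are measured against their own mean, so they lie about 0 by construction and the values cannot tell which group departs. The largest departure of any E13.5 library on any chromosome was 0.06.

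Other chromosomes departed less. Chromosome 19 had 87 higher and 20 lower of 217 genes and adult medians of 0.36, 0.41 and 0.32. Chromosome 10 had 116 higher and 36 lower of 324 genes, with adult medians of 0.38, 0.35 and 0.20, and chromosome 5 had 147 higher and 42 lower of 405 genes, with adult medians of 0.24, 0.24 and 0.39. On the lower side, chromosome 13 had 36 higher and 63 lower of 204 genes, with adult medians of -0.34, -0.38 and -0.21, and the medians of the contrast were -0.32 on chromosome 13, -0.26 on chromosome 8 and -0.25 on chromosome 14. Adult control 3 parted from the other adult libraries on chromosome 12, with medians of -0.26, -0.26 and 0.16, and on chromosome 17, with 0.30, 0.33 and 0.01. Chromosomes 18 and 4 were the lowest and the next lowest with the main setting and with quantile normalisation, other pseudocounts, edgeR, DESeq2 and any 1 library left out, at -0.96 to -0.93 and -0.53 to -0.50. The other filters leave this set of genes as it is, and a scaling of whole libraries cancels in these values. The chromosome with the highest median was 19, but 5 without adult control 2 and 10 without E13.5 2. Over all tested genes, without the limit on the mean, 34 of 398 genes of chromosome 18 were higher and 248 (62.3%) lower, and 79 of 912 genes of chromosome 4 were higher and 440 (48.2%) lower.

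**Figure D2:**
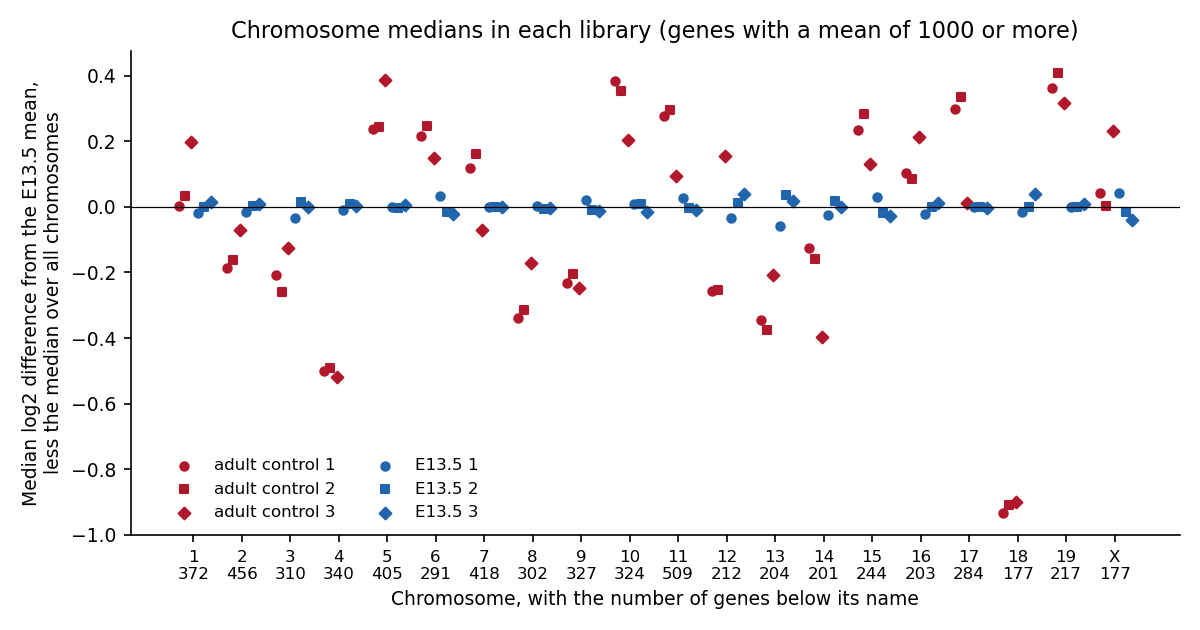
Median log2 difference of the genes of each chromosome from the E13.5 mean, less the median over all chromosomes, in each adult control library (red) and each E13.5 library (blue), for 5973 genes with a mean of 1000 or more. On chromosome 18 the adult control libraries lie at -0.93 to -0.90 and on chromosome 4 at -0.52 to -0.49, while no E13.5 library departs by more than 0.06 on any chromosome.

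The lower level held along all of chromosome 18. With its genes cut in order into 8 pieces, the medians of the contrast were -0.85, -1.11, -0.97, -1.17, -0.64, -0.94, -0.93 and -0.87. The fourth piece holds the clustered protocadherins, adhesion proteins of neurons, and without the 22 protocadherins the chromosome's median was -0.89. Adult control 3 ranged from -1.73 in that piece to -0.31 in the piece nearest the start. On chromosome 4 the pieces ran from -0.45, -0.21, -0.54, -0.26 and -0.25 to -0.69, -0.87 and -0.86, so that its last 3 pieces were the lowest. The genes of chromosome 18 with the most counts, named after their values were seen, included genes that most cells use. Atp5a1, a subunit of mitochondrial ATP synthase, had 9380.0, 9729 and 8407 in adult control libraries, against 21364, 19031 and 18731 in E13.5 libraries (log2 difference of -1.10 ± 0.13 (SE), limma adjusted p = 0.00013). Csnk1a1, a kinase found in most cells, had 6393, 6309 and 7616 in adult control libraries, against 12258, 13066 and 13159 in E13.5 libraries (log2 difference of -0.93 ± 0.14 (SE), limma adjusted p = 0.00045). In both genes the libraries of a group lay close together. Hspa9, a mitochondrial chaperone, had 13659, 13863 and 10257 in adult control libraries, against 18459, 27195 and 26441 in E13.5 libraries (log2 difference of -0.92 ± 0.24 (SE), limma adjusted p = 0.01). Rpl17, of the large ribosomal subunit, had 10547, 11389.7 and 10408 in adult control libraries, against 15443, 18395 and 16483 in E13.5 libraries (log2 difference of -0.63 ± 0.13 (SE), limma adjusted p = 0.0039). For these 4 genes all adult control values lay below all E13.5 values. Ctnna1, the catenin that ties cadherins to actin, went the other way with 32737, 34447 and 15351 in adult control libraries, against 14382, 12282 and 12342 in E13.5 libraries (log2 difference of 1.00 ± 0.29 (SE), limma adjusted p = 0.02), though that call was lost under quantile normalisation and without adult control 1, adult control 2, E13.5 2 or E13.5 3. Only RNA was measured, and the cause of the chromosome pattern was not tested.

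**Figure D3:**
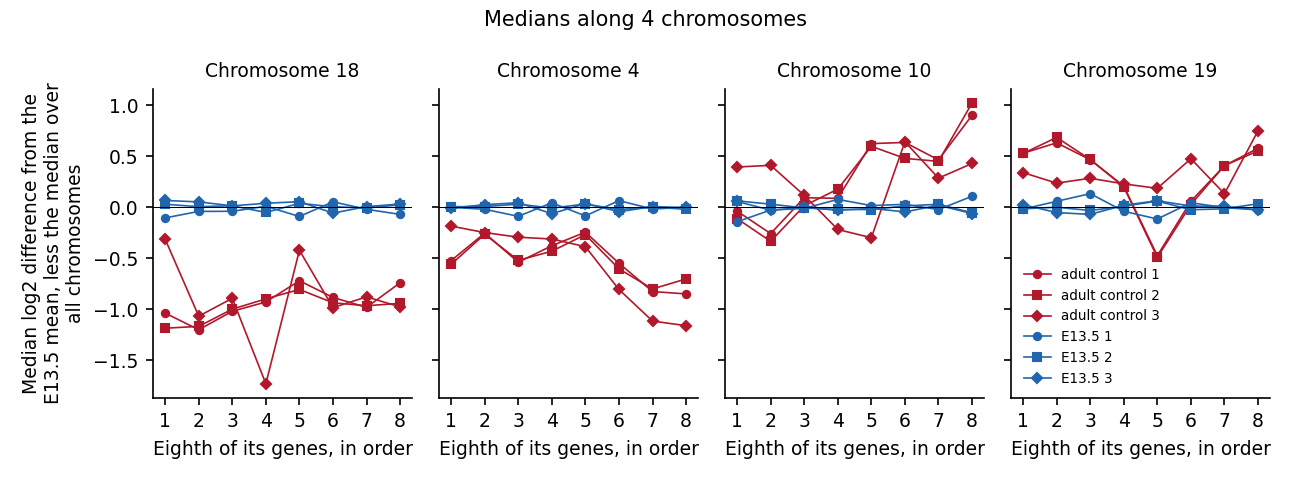
Median log2 difference from the E13.5 mean, less the median over all chromosomes, in 8 pieces of equal gene number along chromosomes 18, 4, 10 and 19, for each adult control library (red) and each E13.5 library (blue). On chromosome 18 every piece of every adult control library is below 0, with the lowest at -1.73 in adult control 3.

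Some genes that lie side by side had the same call. Runs of 6 or more neighbouring tested genes with the same call numbered 17 for higher and 53 for lower genes, and the longest held 9 and 22 genes. Of all genes 18.4% were higher and 31.7% lower, and of those on chromosome 18 62.3% were lower. Lower runs are therefore the more likely, and the number expected without any sharing between neighbours was not computed. Both runs of 22 lay on chromosome 18 and held mostly protocadherins. The first ran from Hars, an aminoacyl-tRNA synthetase, over the α cluster to Pcdhb4, and the second held Taf7, of the basal transcription machinery, and the γ cluster. The genes of the α cluster share their last exons, as do those of the γ cluster, so their reads cannot be assigned with certainty. A run of 6 genes of the β cluster on the same chromosome, Pcdhb13 to Pcdhb18, went the other way and was higher. The call of Pcdhb4 was lost under quantile normalisation, in edgeR, in DESeq2 and without any 1 library other than adult control 3, that of Pcdhb13 without any 1 library other than E13.5 3, and that of Taf7 under quantile normalisation. In the higher run, Pcdhb16 had 724, 635 and 1221 in adult control libraries, against 29.4, 29.5 and 30.5 in E13.5 libraries (log2 difference of 4.75 ± 0.40 (SE), limma adjusted p = 1.2e-05), and the close sequences of these genes leave some reads uncertain. On chromosome 3 a run of 12 lower genes reached from Them4 to Pogz (the call of Pogz was lost without any 1 library other than E13.5 1, and that of Them4 under quantile normalisation), and on chromosome 4 a run of 12 from Iffo2 to Crocc, with Sdhb, a subunit of succinate dehydrogenase, inside it. A run of 8 higher genes on chromosome 1 was the Ugt1a cluster, whose transcripts share their last exons and may count the same reads. Genes called lower also spanned more of the genome. Their median span was 34036 bases, against 22282 bases for genes called higher and 21431 bases for genes not called, and 23.8% of the lower, 12.8% of the higher and 10.2% of the uncalled genes were longer than 100 kb.

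Transcription factors that pattern the embryo were mostly lower in adult control. Of 30 forebrain factors tested, 2 were higher and 27 lower, with a median log2 difference of -7.11. It was -7.20 when genes without a read in a group took the value of their bound. Of the 30, 25 passed the filter through E13.5 libraries alone, so their direction was set by how they were chosen, and the same holds for the members counted as such in the lists that follow. Among all genes 18.4% were higher and 31.7% lower, with a median of -0.20. Emx2, a factor of the dorsal telencephalon, had 0, 0 and 0 in adult control libraries, against 416, 508 and 562 in E13.5 libraries, at least 520.1-fold lower (limma adjusted p = 1.1e-07). Bcl11b and Pou3f2, factors of cortical neurons, had no adult read either and were at least 881-fold and 470.4-fold lower (limma adjusted p = 1.3e-07 and 1.8e-07). The 2 exceptions were higher in adult control. Lhx6, a LIM factor of cortical interneurons, had 1049.6, 1006 and 887 in adult control libraries, against 66.7, 38.2 and 41.99 in E13.5 libraries (log2 difference of 4.34 ± 0.34 (SE), limma adjusted p = 8.4e-06), and Nr2f2, an orphan nuclear receptor also known in venous endothelium, had 4189.9, 4083 and 3468 in adult control libraries, against 1416, 601 and 499 in E13.5 libraries (log2 difference of 2.37 ± 0.34 (SE), limma adjusted p = 0.00041).

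Positional factors of the trunk and mesoderm, Hox genes aside, also ran lower, with 4 higher and 27 lower of 40 and a median of -4.68 (-4.71 at the bound), and 26 passed the filter through E13.5 alone. Irx1, an Iroquois homeobox gene, had 0, 0 and 0 in adult control libraries, against 248, 232 and 229 in E13.5 libraries, at least 248-fold lower (limma adjusted p = 1.3e-07). The 4 that went against the list included Foxf1, a forkhead factor of mesoderm and of lung and gut vessels, with 1402, 1688 and 1709 in adult control libraries, against 19.07, 26.01 and 17.2 in E13.5 libraries (log2 difference of 6.22 ± 0.27 (SE), limma adjusted p = 2.7e-07), and Shox2, a homeobox factor of limb and heart, with 271, 274 and 573 in adult control libraries, against 32.6, 10.4 and 9.54 in E13.5 libraries (log2 difference of 4.46 ± 0.58 (SE), limma adjusted p = 0.0002). Of 15 Sox factors, 4 were higher and 10 lower (median -9.32, or -9.40 at the bound), with 9 passing through E13.5 alone and 2 through adult control alone. Sox2, a factor of neural stem cells, had 0, 0 and 0 in adult control libraries, against 4052, 4878 and 4683 in E13.5 libraries, and Sox11, of young neurons, had 0, 0 and 0 in adult control libraries, against 3669, 5839.8 and 5819.9 in E13.5 libraries. They were at least 4766-fold and 5366-fold lower (limma adjusted p = 6.8e-08 and 7e-08).

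Regulators of RNA were mostly lower in some lists and not in others, beside 18.4% higher and 31.7% lower among all genes. Of 27 splicing regulators, many of them known from neurons, 5 were higher and 18 lower, with a median of -2.43, and 13 passed the filter through E13.5 alone. The higher count was 2 without E13.5 2 or without E13.5 3, and 3 with equal totals, without adult control 1 or without adult control 2. Khdrbs3, a splicing factor related to Sam68, had 0, 2.03 and 0 in adult control libraries, against 1761, 1954 and 1788 in E13.5 libraries (limma adjusted p = 3.7e-07). Nova1, a splicing regulator of neurons, had 0, 0 and 0 in adult control libraries, against 234, 335 and 273 in E13.5 libraries and was at least 294-fold lower (limma adjusted p = 6.8e-07). Its relative Nova2, which is known both in neurons and in ECs, was higher with 3526, 3785 and 2882 in adult control libraries, against 412, 739 and 774 in E13.5 libraries (log2 difference of 2.45 ± 0.26 (SE), limma adjusted p = 6.2e-05). Elavl2 and Srrm4, of neurons, had no adult read and were at least 183-fold and 112-fold lower (limma adjusted p = 4.4e-07 and 1.6e-06). Of 11 RNA-binding and HMGA genes known from fetal tissue, 0 were higher and 9 lower in limma, with 4 passing through E13.5 alone. At an unadjusted p under 0.05, in edgeR and in DESeq2 0 were higher as well, while 1 was with the 6 libraries fitted alone. Igf2bp3, which binds messenger RNA in fetal tissues, had 38.2, 30.5 and 55.2 in adult control libraries, against 2403, 2201 and 2151 in E13.5 libraries (log2 difference of -5.78 ± 0.36 (SE), limma adjusted p = 2.1e-06), and Mex3a, of stem and progenitor cells, had 416, 528 and 280.0 in adult control libraries, against 2084, 2455 and 2526 in E13.5 libraries (log2 difference of -2.57 ± 0.28 (SE), limma adjusted p = 6.3e-05). Broadly used families were more even. Of 31 SR and hnRNP splicing factors 4 were higher and 3 lower (median -0.01), of 52 RNA helicases of the DDX and DHX families 11 were higher and 11 lower (median 0.04), and of 53 translation initiation factors 11 were higher and 5 lower (median 0.05). With equal totals these counts were 1 and 4, 5 and 13, and 8 and 8, and without E13.5 3 they were 1 and 2, 5 and 4, and 6 and 4. The helicases and initiation factors called higher also numbered 5 to 7 without adult control 1, adult control 2 or E13.5 2.

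Families of receptors and channels differed in their balance, beside 18.4% higher and 31.7% lower among all genes. Of 35 receptor tyrosine kinases, 6 were higher and 25 lower, with a median of -4.05, and 12 passed the filter through E13.5 alone. The 6 higher were Tie1, Tek, Kdr, Flt1 and Flt4, all known from endothelium, and Mertk, which phagocytes use to take up dying cells. Mertk had 2536, 2462 and 3905 in adult control libraries, against 1134, 1323 and 1299.7 in E13.5 libraries (log2 difference of 1.21 ± 0.20 (SE), limma adjusted p = 0.00097). Ror2, a Wnt5a receptor, had 0, 0 and 0 in adult control libraries, against 374, 357 and 370.2 in E13.5 libraries, at least 386-fold lower (limma adjusted p = 1.1e-07), and Ror1 had 0, 0 and 0 in adult control libraries, against 261, 172 and 158 in E13.5 libraries, at least 207-fold lower (limma adjusted p = 2.6e-07). Ntrk2, the receptor of the neurotrophin BDNF, had 0, 0 and 0 in adult control libraries, against 2406, 2554 and 2429 in E13.5 libraries, at least 2586-fold lower (limma adjusted p = 2e-06). The 3 E13.5 libraries held Ror2 and Ntrk2 at close values, while Ror1 was highest in E13.5 1. Of 67 potassium channel genes, 3 were higher and 51 lower (median -4.41, or -4.50 at the bound), and 10 were higher under quantile normalisation. Passing through E13.5 alone held for 51 of the 67. Kcnc1, a channel of fast-spiking neurons, had 0, 0 and 0 in adult control libraries, against 1350.0, 3361 and 3568 in E13.5 libraries, at least 2898-fold lower (limma adjusted p = 1.5e-07). Of 33 receptors of glutamate, GABA and glycine, 29 were lower and 0 higher in limma (median -4.57, or -4.79 at the bound), and 0 were higher at an unadjusted p under 0.05, in edgeR or in DESeq2. Grm5, a metabotropic glutamate receptor, had 0, 0 and 0 in adult control libraries, against 608, 1179 and 974 in E13.5 libraries, at least 967-fold lower (limma adjusted p = 1.9e-07). Of these 33 receptors, 27 passed through E13.5 alone. Nuclear receptors were more even, with 5 higher and 6 lower of 18 (median -0.08; 9 higher and 4 lower under quantile normalisation and 8 higher without adult control 3).

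Lists of the Hedgehog and retinoic acid pathways and of proteoglycans had more lower than higher members, as did all genes tested (18.4% higher and 31.7% lower). Of 17 Hedgehog pathway genes, 2 were higher and 10 lower (median -1.75), and 5 passed the filter through E13.5 alone. The ligand Shh had 0, 0 and 0.986 in adult control libraries, against 2142, 1482 and 1488 in E13.5 libraries (limma adjusted p = 7.5e-07). The co-receptor Gas1 had 0, 0 and 0 in adult control libraries, against 698, 636 and 569.7 in E13.5 libraries, at least 666-fold lower (limma adjusted p = 4.5e-07), and the transcription factor Gli2 had 0, 0 and 0 in adult control libraries, against 391, 568 and 581 in E13.5 libraries, at least 539-fold lower (limma adjusted p = 6.5e-07). Of 16 retinoic acid pathway genes, 0 were higher and 11 lower in limma (median -4.10, or -4.12 at the bound), with 9 passing through E13.5 alone, and 0 were higher at an unadjusted p under 0.05, in edgeR or in DESeq2, but 1 under quantile normalisation, without adult control 3 or without E13.5 1. Aldh1a2, which makes retinoic acid, had 0, 0 and 0 in adult control libraries, against 274, 376 and 316 in E13.5 libraries, at least 338-fold lower (limma adjusted p = 3.1e-06). Of 32 proteoglycan and hyaluronan genes, 3 were higher and 22 lower (median -4.07, or -4.14 at the bound), and 16 passed through E13.5 alone. Gpc4, a glypican of neural progenitors, had 0, 0 and 0 in adult control libraries, against 3822, 2617 and 2882 in E13.5 libraries, at least 3263-fold lower (limma adjusted p = 7e-08). Srgn, the proteoglycan of secretory granules in blood cells and ECs, went against the list with 1653, 1631 and 4217 in adult control libraries, against 1.59, 6.94 and 7.63 in E13.5 libraries (log2 difference of 8.65 ± 0.62 (SE), limma adjusted p = 4.9e-06).

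Of 23 genes of the YAP/TEAD pathway, 2 were higher and 11 lower, with a median of -0.51, and the higher count was 0 without E13.5 2 or E13.5 3 and 1 with equal totals or without any 1 adult library. In the main setting 56.5% were called, against 50.1% of all genes, and 3 of the 23 passed the filter through E13.5 alone. Tead1, a DNA-binding partner of YAP, had 3913, 3848 and 4207 in adult control libraries, against 16006, 16028 and 17700.1 in E13.5 libraries (log2 difference of -2.05 ± 0.14 (SE), limma adjusted p = 3e-06), and Tead3 had 0, 2.03 and 1.97 in adult control libraries, against 672, 799 and 652 in E13.5 libraries (limma adjusted p = 3.4e-06). Vgll3, a cofactor of the TEAD proteins, had 0, 0 and 0 in adult control libraries, against 2709.6, 1331 and 1292 in E13.5 libraries, at least 1867-fold lower (limma adjusted p = 3.1e-07). Axl, a receptor kinase and a target of the pathway, had 167, 177 and 324 in adult control libraries, against 13919.9, 10108 and 10586 in E13.5 libraries (log2 difference of -5.74 ± 0.43 (SE), limma adjusted p = 6e-06). In 17 intermediate filament and lamin genes, 3 were higher and 9 lower (median -2.12), and 8 passed the filter through E13.5 alone. Besides Nefl, the epithelial keratin Krt80 was higher with 168, 95.6 and 444 in adult control libraries, against 22.2, 17.3 and 19.08 in E13.5 libraries (log2 difference of 3.24 ± 0.51 (SE), limma adjusted p = 0.00072), while Des, the desmin of muscle and mural cells, had 0, 0 and 0 in adult control libraries, against 41.3, 118 and 119 in E13.5 libraries, at least 97.5-fold lower (limma adjusted p = 4.8e-06). Gfap, of astrocytes, had 0, 0 and 1.97 in adult control libraries, against 985, 589.6 and 499 in E13.5 libraries (limma adjusted p = 4.4e-06).

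Stress pathways did not move as 1 block. Of 25 p53 targets, 4 were higher and 11 lower, with a median of -0.66. That is 60.0% called, against 50.1% of all genes. Of the 25, 3 passed the filter through E13.5 alone, so their direction was set by how they were chosen. Pmaip1, the death protein Noxa, had 0, 0 and 0 in adult control libraries, against 1593, 1685 and 1567 in E13.5 libraries, at least 1696-fold lower (limma adjusted p = 7e-08), and Perp, a desmosomal target, had 0, 0 and 0 in adult control libraries, against 2892, 1929 and 1819 in E13.5 libraries, at least 2324-fold lower (limma adjusted p = 3.3e-07). Gdf15, a secreted stress signal, had 16.5, 4.07 and 9.86 in adult control libraries, against 1065, 2005 and 1879 in E13.5 libraries (log2 difference of -7.33 ± 0.55 (SE), limma adjusted p = 6.5e-06). Against them, Btg2, which slows proliferation, had 4444, 5169 and 4453 in adult control libraries, against 1197, 1502 and 1531 in E13.5 libraries (log2 difference of 1.74 ± 0.24 (SE), limma adjusted p = 0.00032), and Plk2, a kinase of the same targets, had 18051, 19558 and 14186 in adult control libraries, against 2916, 6173 and 6005 in E13.5 libraries (log2 difference of 1.84 ± 0.29 (SE), limma adjusted p = 0.00073). Of 25 NRF2 and glutathione genes, 4 were higher and 11 lower (median -0.45), and 2 were higher without E13.5 2. Of these 25, 1 passed the filter through E13.5 alone. Gstm1 and Gstm2, glutathione transferases close enough in sequence that some reads may be misplaced, parted. Gstm1 had 833, 870.2 and 557 in adult control libraries, against 14912, 20119 and 19858 in E13.5 libraries (log2 difference of -4.61 ± 0.29 (SE), limma adjusted p = 2.2e-06), and Gstm2 had 1402, 1353 and 1307 in adult control libraries, against 277, 165 and 154 in E13.5 libraries (log2 difference of 2.82 ± 0.27 (SE), limma adjusted p = 3e-05). Of 22 genes of the unfolded protein and amino acid stress response, 4 were higher (18.2%, against 18.4% of all genes) and 0 lower in limma, 0 were lower at an unadjusted p under 0.05, in edgeR or in DESeq2, and 1 was lower under quantile normalisation. The higher ones were the sensors Atf6 and Ern1, the factor Xbp1 and Sdf2l1 of the endoplasmic reticulum, and Atf6 had 6075, 6574 and 6118 in adult control libraries, against 1439.8, 1703 and 1769 in E13.5 libraries (log2 difference of 1.94 ± 0.22 (SE), limma adjusted p = 8.5e-05).

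Of 35 innate immune sensors and NF-kB genes, 14 were higher and 5 lower, with a median of 0.72. Among all genes 18.4% were higher and 31.7% lower. Of the 35, 4 passed the filter through E13.5 alone and 3 through adult control alone. The lower count was 3 under quantile normalisation and without adult control 1 or 2, and 2 with a filter of 50. Aim2, a sensor of cytosolic DNA, had 1859, 1754 and 2431 in adult control libraries, against 17.5, 8.67 and 14.3 in E13.5 libraries (log2 difference of 7.16 ± 0.31 (SE), limma adjusted p = 2.7e-07). Nod1 and Nod2, sensors of bacterial wall fragments, had 804, 915 and 869.6 in adult control libraries, against 58.8, 43.4 and 29.6 in E13.5 libraries (log2 difference of 4.32 ± 0.32 (SE), limma adjusted p = 6.3e-06) for Nod1 and 396, 477 and 581 in adult control libraries, against 14.3, 12.1 and 22.9 in E13.5 libraries (log2 difference of 4.83 ± 0.32 (SE), limma adjusted p = 3e-06) for Nod2. Mlkl, which carries out necroptosis, had 1351, 1268 and 2185 in adult control libraries, against 124, 84.1 and 117 in E13.5 libraries (log2 difference of 3.85 ± 0.32 (SE), limma adjusted p = 1.3e-05). In these 4 genes the lowest adult control value was several times the highest E13.5 value. Tlr7, a sensor of single-stranded RNA known from microglia and other immune cells, went against the list with 0, 0 and 0 in adult control libraries, against 27.0, 24.3 and 55.3 in E13.5 libraries, at least 37.3-fold lower (limma adjusted p = 2.5e-05). The 10 microglia and macrophage markers summed to 118 to 227 in adult control and 454 to 556 in E13.5, and their part in this was not tested. Small families of immune genes differed in direction, which the filter sets for members that passed through 1 group alone. Of 6 Schlafen genes, of which 3 passed the filter through adult control alone, 5 were higher (median 5.19, or 5.32 at the bound), and 3 of 4 with a filter of 50, and Slfn5 had 4278, 4363 and 9527 in adult control libraries, against 6.36, 27.7 and 14.3 in E13.5 libraries (log2 difference of 8.57 ± 0.55 (SE), limma adjusted p = 2.5e-06). Of 15 immunity-related and guanylate-binding GTPases 8 were higher and 1 lower (median 2.06; 13 and 0 under quantile normalisation; 4 passed through adult control alone), and Gvin1 had 1983, 1857 and 3993 in adult control libraries, against 17.5, 15.6 and 24.8 in E13.5 libraries (log2 difference of 6.94 ± 0.44 (SE), limma adjusted p = 2.2e-06). Of 8 C-type lectin genes 7 were higher and 1 lower (median 3.44; 4 higher without adult control 1 or without E13.5 2; 4 passed through adult control alone), and Clec9a, known from dendritic cells, had 289, 227 and 297 in adult control libraries, against 0, 0 and 1.91 in E13.5 libraries (limma adjusted p = 2.5e-05). Of 26 interleukin receptors 5 were higher and 9 lower (median -0.46), but 11 were higher and 6 lower under quantile normalisation (median 0.61) and 3 were higher without E13.5 2 or E13.5 3. That is 53.8% called in the main setting, near the 50.1% of all genes. Of the 26, 5 passed the filter through E13.5 alone and 1 through adult control alone. Of 6 TNF ligands 2 were higher and 3 lower (median -1.59, with 1 higher without any 1 library other than adult control 3). Of 3 MS4A genes 1 was higher and 2 lower (median -1.65, with 1 lower without adult control 1 or 2 or E13.5 1 or 2). The filter was passed through E13.5 alone by 3 of the 6 TNF ligands and by 2 of the 3 MS4A genes. Of 13 TNF receptors 6 were higher and 4 lower (median 0.40, with 7 and 2 under quantile normalisation). Of the 13, 3 passed the filter through E13.5 alone and 1 through adult control alone. The decoy death receptors Tnfrsf22 and Tnfrsf23, close relatives in the TNF receptor family, had 5657, 5858 and 5881 in adult control libraries, against 650.0, 339.9 and 344 in E13.5 libraries (log2 difference of 3.77 ± 0.29 (SE), limma adjusted p = 7.6e-06) for Tnfrsf22 and 10548, 11082 and 9286 in adult control libraries, against 677, 286 and 268 in E13.5 libraries (log2 difference of 4.78 ± 0.49 (SE), limma adjusted p = 4.8e-05) for Tnfrsf23.

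Genes of the ribosome and the proteasome had medians near 0, and their calls depended on the scaling and on single libraries. Of the cytosolic ribosomal genes 14.7% were called, of the mitochondrial ones 32.1% and of the proteasome genes 32.4%, against 50.1% of all genes. Among all genes 18.4% were higher and 31.7% lower, while the calls of the mitochondrial ribosomal and proteasome genes were mostly higher. Of 75 cytosolic ribosomal protein genes, 5 were higher, 6 lower and 16 near equal, with a median of 0.07. The median was -0.06 with equal totals and -0.21 under quantile normalisation, with 0 higher and 13 lower in the second. Of 78 mitochondrial ribosomal protein genes, 22 were higher, 3 lower and 13 near equal (median 0.24; 13 higher without E13.5 3 and 6 lower with equal totals). Mrpl15 had 3062, 3481 and 2557 in adult control libraries, against 1134, 1282 and 1235 in E13.5 libraries (log2 difference of 1.31 ± 0.15 (SE), limma adjusted p = 0.00011), and Mrpl33 had 1789, 1864 and 1505 in adult control libraries, against 841, 460.4 and 446 in E13.5 libraries (log2 difference of 1.62 ± 0.24 (SE), limma adjusted p = 0.00049). Of 37 proteasome genes 12 were higher, 0 lower and 7 near equal in limma, with a median of 0.29. Lower genes numbered 2 at an unadjusted p under 0.05, 0 in edgeR, 1 in DESeq2, and 2 with the 6 libraries fitted alone or a pseudocount of 10, and the higher count was 6 or 7 without adult control 1, E13.5 2 or E13.5 3. Psmc2, an ATPase of its base, had 4419, 4250.3 and 5143 in adult control libraries, against 2687, 2439 and 2413 in E13.5 libraries (log2 difference of 0.87 ± 0.14 (SE), limma adjusted p = 0.00088). Of 25 cell division genes 2 were higher and 2 lower. Besides Ccnd2, Rrm2, a subunit of the enzyme that makes deoxynucleotides, had 1272, 680.1 and 1437 in adult control libraries, against 5872, 2356 and 2253 in E13.5 libraries (log2 difference of -1.55 ± 0.41 (SE), limma adjusted p = 0.012), while Mcm3, of the replicative helicase, had 3586, 2812 and 2733 in adult control libraries, against 1740.2, 719.7 and 764 in E13.5 libraries (log2 difference of 1.61 ± 0.37 (SE), limma adjusted p = 0.0061) and Tyms, which makes thymidylate, had 1137, 789 and 1447 in adult control libraries, against 544, 241 and 208 in E13.5 libraries (log2 difference of 1.85 ± 0.46 (SE), limma adjusted p = 0.0088). In these 3 genes E13.5 1 was the highest E13.5 library, and without it 5 of the list were higher and 2 lower.

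**Figure D4:**
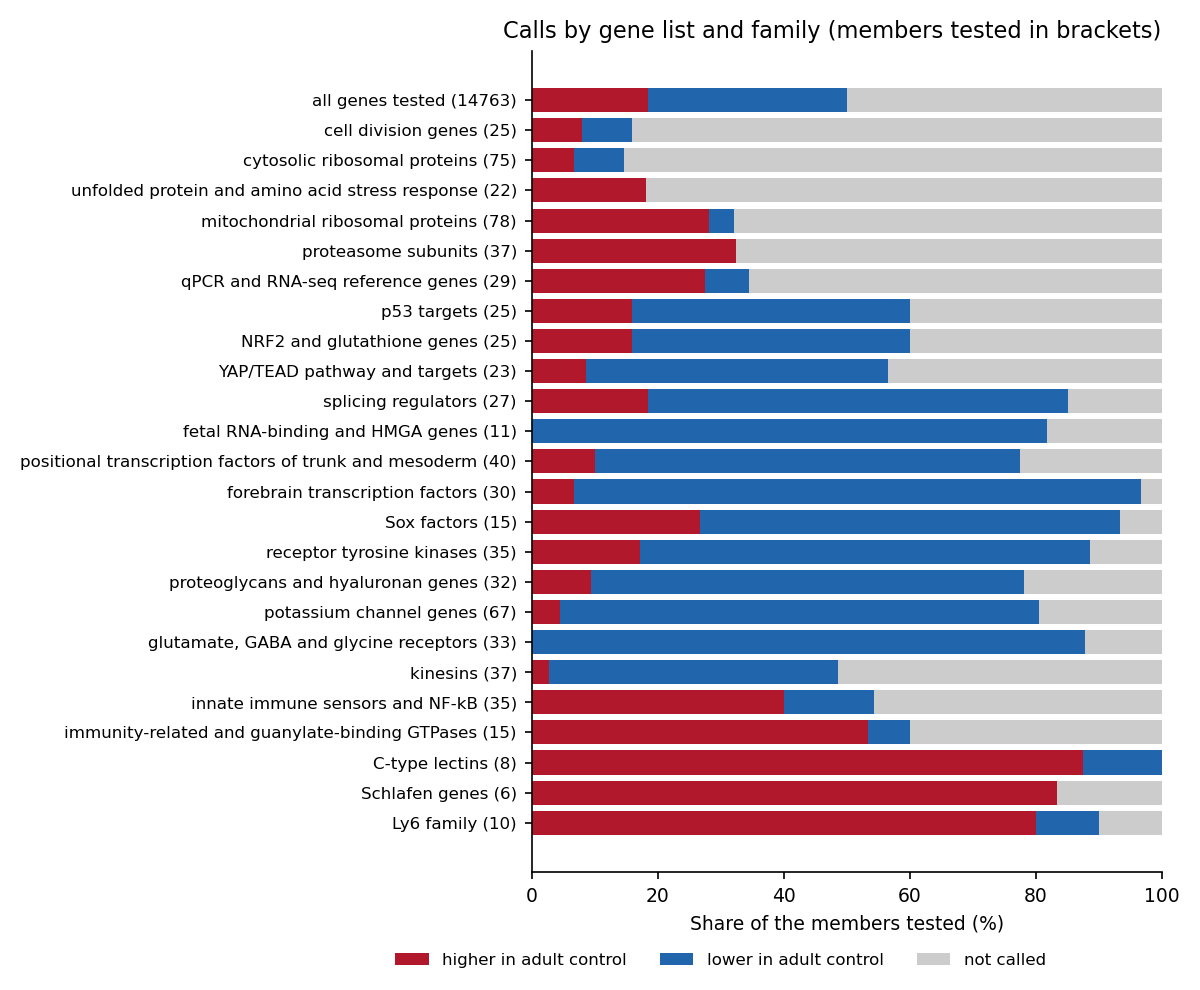
Share of the members tested that were higher in adult control (red), lower in adult control (blue) or not called (grey), for 24 gene lists and families and, in the top bar, for all 14763 genes tested. The forebrain factors have 27 of 30 members lower and the Schlafen genes 5 of 6 higher, against 31.7% lower and 18.4% higher among all genes, but 25 of the 30 and 3 of the 6 passed the filter only through the group in which they were high.

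Related genes of many families parted between the groups. In 50 pairs of a form known from nervous or fetal tissue and a form used more broadly, both were tested. The neural or fetal form was lower in 39 pairs and higher in 4, with a median of -4.35, and it passed the filter through E13.5 alone in 25 pairs, while the broad form was lower in 8 and higher in 10, with a median of 0.03. Some genes stand in more than 1 pair. The log2 difference of the broad form was above that of its partner in 43 of 50 pairs. The pairs were chosen with earlier results of these data known. In the 25 pairs named the filter set the direction of the neural or fetal form, while the broad form passed in both groups in all 50. The 43 pairs are therefore a description. In 25 pairs the neural form was lower and the broad form was not called, and in 8 pairs the neural form was lower and the broad form higher. Levels are not compared between the genes of a pair, since the values are not scaled by length.

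Among the 8 pairs with opposite calls were genes of membrane fusion and of signalling at the membrane. Snap25, of the synaptic fusion complex, had 0, 0 and 1.97 in adult control libraries, against 283, 218 and 224 in E13.5 libraries (limma adjusted p = 1.2e-05), and its broad partner Snap23 had 1892, 1855 and 2986 in adult control libraries, against 1061, 1105 and 1124 in E13.5 libraries (log2 difference of 1.00 ± 0.26 (SE), limma adjusted p = 0.012). Vamp2, of synaptic vesicles, had 782, 734 and 647 in adult control libraries, against 1232, 1236 and 1290.1 in E13.5 libraries (log2 difference of -0.80 ± 0.18 (SE), limma adjusted p = 0.0049), and Vamp8, of endosomes and granules, had 3479, 3821 and 2539.8 in adult control libraries, against 604, 259 and 279 in E13.5 libraries (log2 difference of 3.19 ± 0.36 (SE), limma adjusted p = 8.3e-05). Gng3 and Gng11 are γ subunits of G proteins. Gng3 had 33.0, 38.6 and 13.8 in adult control libraries, against 457, 603 and 534 in E13.5 libraries (log2 difference of -4.29 ± 0.47 (SE), limma adjusted p = 6.6e-05), and Gng11 had 3297, 3194 and 3025 in adult control libraries, against 189, 95.4 and 68.7 in E13.5 libraries (log2 difference of 4.87 ± 0.43 (SE), limma adjusted p = 1.8e-05). Cyfip2 and Cyfip1, of the complex that starts actin branching, parted in the same way, with 1.73, 0 and 1.97 in adult control libraries, against 4772, 4981 and 5198 in E13.5 libraries (log2 difference of -11.27 ± 0.46 (SE), limma adjusted p = 2.4e-07) for Cyfip2 and 11344, 11959 and 10069 in adult control libraries, against 6934, 6405 and 6251 in E13.5 libraries (log2 difference of 0.77 ± 0.13 (SE), limma adjusted p = 0.001) for Cyfip1. Rac3 and Rac1, GTPases that act on that complex, had 26.9, 10.2 and 8.87 in adult control libraries, against 240.0, 188 and 182 in E13.5 libraries (log2 difference of -3.80 ± 0.58 (SE), limma adjusted p = 0.00057) for Rac3 and 20486, 20686 and 23157 in adult control libraries, against 12835, 12293 and 11916 in E13.5 libraries (log2 difference of 0.79 ± 0.14 (SE), limma adjusted p = 0.0012) for Rac1. In these 5 pairs the adult control and E13.5 values did not overlap for either gene.

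In the cytoskeleton and in energy metabolism the broad partner was often not called. Map2, which binds microtubules in dendrites, had 1.73, 0 and 0 in adult control libraries, against 4842, 7717 and 7354 in E13.5 libraries (limma adjusted p = 2.7e-07), while Map4, its counterpart in most cells, had 7192, 7344 and 7607 in adult control libraries, against 10513, 8279 and 8933 in E13.5 libraries (log2 difference of -0.32 ± 0.20 (SE), limma adjusted p = 0.22). Ldhb, the lactate dehydrogenase subunit of heart and brain, had 0, 0 and 0 in adult control libraries, against 4139.9, 3780.5 and 3196 in E13.5 libraries, at least 3892-fold lower (limma adjusted p = 1.3e-05). Eef1a2, the elongation factor of neurons and muscle, had 0, 0 and 0 in adult control libraries, against 52.4, 108 and 119 in E13.5 libraries, at least 97.8-fold lower (limma adjusted p = 1.6e-06), beside the uncalled Eef1a1. In 6 pairs both genes were lower, as for Tubb2b and Tubb2a, β-tubulins with log2 differences of -4.40 and -3.02, and Atp1b2 and Atp1b1, β subunits of the sodium pump, with -10.33 and -6.59. Hexokinases ran the other way as listed, with Hk1 as the neural form. Hk1 is known from brain but also from most tissues, so the labels of this pair are uncertain. Hk1 had 13844, 15024 and 11941 in adult control libraries, against 5668, 7786 and 7878 in E13.5 libraries (log2 difference of 0.95 ± 0.23 (SE), limma adjusted p = 0.0086), and Hk2, of muscle and dividing cells, had 129, 134 and 108 in adult control libraries, against 1789, 3105 and 3221 in E13.5 libraries (log2 difference of -4.39 ± 0.85 (SE), limma adjusted p = 0.0024). Marcksl1, known from the developing brain, was higher too, with a log2 difference of 1.34.

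**Figure D5:**
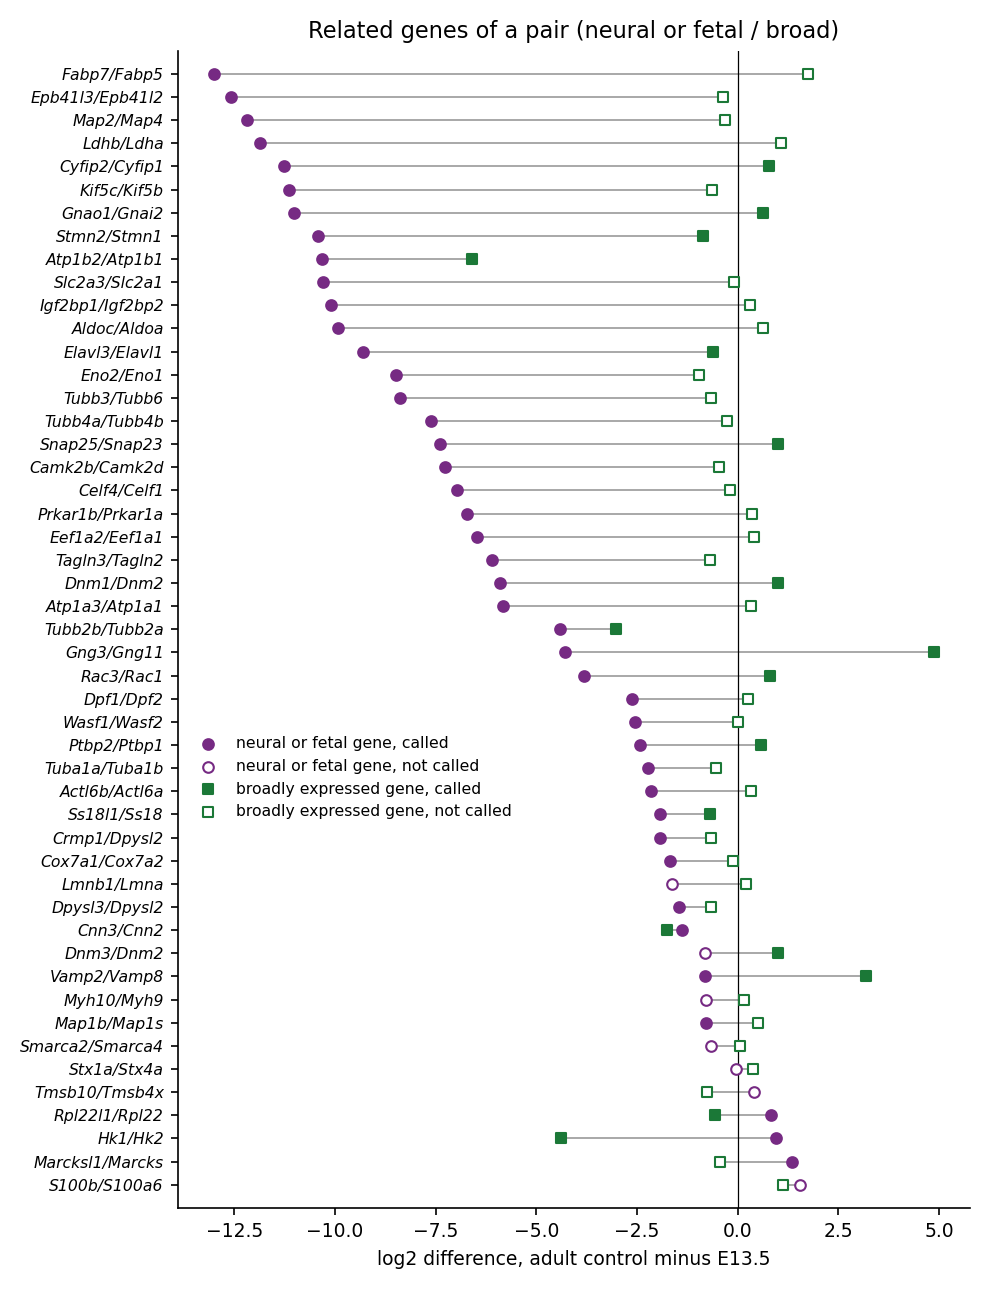
Log2 difference, adult control minus E13.5, of the neural or fetal gene (purple circles) and of the broadly expressed gene (green squares) in 49 of the 50 pairs of related genes, joined by a line, with filled symbols for called genes. The broad gene lies to the right of its partner in 43 of the pairs, and 1 pair is not drawn. The pairs were chosen with earlier results of these data known, and in 25 of the 50 the neural or fetal gene passed the filter through E13.5 alone.

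Within the groups, the spread came from the library that stood apart. Among genes with a group mean of 100 or more, 519 had a standard deviation of log2 values above 1 in adult control, and adult control 3 was the farthest library in 513 of them. In E13.5 there were 199 such genes, and E13.5 1 was the farthest in all 199. Afap1l2, an adaptor of Src kinases, had 0, 0 and 701 in adult control libraries, against 309.9, 222 and 168 in E13.5 libraries, so that only adult control 3 held it at an E13.5-like level (log2 difference of -4.68 ± 2.62 (SE), limma adjusted p = 0.17; called lower without adult control 3). Krt20, an epithelial keratin, had 6.94, 10.2 and 3641 in adult control libraries, against 969, 55.5 and 49.6 in E13.5 libraries, with adult control 3 and E13.5 1 the high libraries of their groups (log2 difference of -1.03 ± 2.85 (SE), limma adjusted p = 0.79). Pir, a nuclear protein that binds iron, had 503, 478 and 0 in adult control libraries, against 193, 185 and 208 in E13.5 libraries (log2 difference of -1.65 ± 3.15 (SE), limma adjusted p = 0.69), with no read in adult control 3 alone. Col8a1, a collagen of vessel walls, had 19.08, 14.2 and 4019 in adult control libraries, against 5112, 3173 and 3349 in E13.5 libraries and was called lower (log2 difference of -5.14 ± 1.86 (SE), limma adjusted p = 0.046), a difference of -7.76 without adult control 3 and of -3.94 or -3.74, without a call, when adult control 1 or 2 was left out instead. That call was also lost without any 1 E13.5 library, with the 6 libraries fitted alone, in edgeR and in DESeq2. In E13.5, Il1rl1, the interleukin 33 receptor, had 0, 0 and 0 in adult control libraries, against 1969, 32.9 and 15.3 in E13.5 libraries, at least 706-fold lower (limma adjusted p = 0.0053), and at least 25.3-fold lower without E13.5 1. Tfap2b, a factor of neural crest derivatives, had 0, 0 and 0 in adult control libraries, against 1045, 29.5 and 13.4 in E13.5 libraries, at least 381-fold lower (limma adjusted p = 0.0056), and at least 22.5-fold lower without E13.5 1. Both calls were lost in DESeq2. The fibroblast markers were also highest in E13.5 1, at 26611 against 9956 and 9607 in E13.5 2 and 3, and their part in these values was not tested.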

How the data were processed

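Poly(A) RNA libraries of 10 samples, 6 of them compared here, were sequenced as read pairs. The authors aligned the reads to mm10 with STAR. The submitters' processing notes name FastQC, cutadapt, featureCounts and DESeq2 with no version. The sources used here do not say if counting was stranded. What the authors deposited is a linear signal per gene and library, the counts divided by a size factor. Of its lines, 26 of 21638 held a date where a symbol belongs and were left out. Multiplied by the recovered size factors, 100% of the values were whole within 0.01 of a read, and these recovered reads gave the depths and the count tests.

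Limma (3.58.1, with R 4.3.3) was fitted with an intensity trend to log2(normalised count + 1) over 10 libraries in 4 groups, and the contrast adult control minus E13.5 was adjusted over 14763 genes. Fold changes are on that scale and understate the change of genes with few reads. With 1 to 3 reads in a group, levels are given without a fold, and with no read a bound against 3 reads over the group, which covers counting error only. The fit was tested on simulated data. edgeR 4.0.16, which called 7169 genes, DESeq2 1.42.0, other pseudocounts, filters and scalings and leaving out each library were alternatives. Chromosomes and spans came from GENCODE M21, and 99.3% of the genes tested were located.

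The members, 33 lists, 60 families and 52 pairs were chosen with earlier results of these data known. The named genes were up to 4 members of a list and 2 of a family with the smallest p or against their list, the 10 largest rises and falls, the 10 with the most counts, with no read in a group, near equal or most variable, pair members and run members, and from these the text takes a part. Gapdh and the abundant genes of chromosome 18 were named after their values were seen. In the study's methods a biological replicate is the pooled ECs of 1 litter, so p-values measure the spread between such pools. A few genes are counted in the totals but not reported here by name.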

Additional observations from a re-analysis of the deposited data

How the results depend on the processing

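The number of genes called, 7401, stayed between 5734 and 8137 under the alternatives tried. Genes called higher, 2717, numbered 4182 under quantile normalisation, and the cause was not tested. With a log2 difference beyond 1 either way as the limit, 1794 were higher and 3940 lower. Leaving out 1 library at a time gave 5845 to 8137 calls and 175 to 532 near-equal genes. Equal totals gave 2264 higher and 5151 lower genes, DESeq2 3086 and 4695, edgeR 2790 and 4379. With the replicate number as a block 7428 genes were called, 2725 of them higher, and 459 were near equal, and of the innate immune list 8 rather than 5 were lower. Deviations of same-numbered adult control and E13.5 libraries correlated at 0.00, 0.02 and 0.07. Since adult control 3 and E13.5 1 stood apart in their groups, these values cannot tell whether the number pairs the samples. Of the 288 named genes, of which 275 could be tested with a filter of 50, 0 were reversed, and the most calls lost, 18, were lost without E13.5 2. With 3 libraries a group, 0 of the 3691 genes with a mean of 157 normalised counts or less could be shown near equal.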

Other observations

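Gene groups not described above were counted in the same way. Of 13 FGF ligands 0 were higher and 11 lower in limma (median log2 difference, adult control minus E13.5, -4.16; 7 passed the filter through E13.5 alone), and 0 were higher at an unadjusted p under 0.05, in edgeR or in DESeq2. Of 37 kinesins, the motors that move cargo on microtubules, 1 was higher and 17 lower (median -0.73; 8 passed through E13.5 alone; 6 higher under quantile normalisation). Kif1a, which carries synaptic vesicle precursors in axons, had 0, 0 and 0.986 in adult control libraries, against 11564, 15371 and 16814 in E13.5 libraries, and Kif21a had 0, 0 and 0 in adult control libraries, against 1169, 2663 and 2732 in E13.5 libraries, at least 2298-fold lower (limma adjusted p = 2.8e-06). Of 23 genes of fatty acid oxidation 0 were higher and 9 lower in limma (median -0.49), 0 were higher at an unadjusted p under 0.05, in edgeR or in DESeq2, and 1 was under quantile normalisation. Of the 23, 4 passed the filter through E13.5 alone. Of 27 BAF chromatin remodelling genes 2 were higher and 11 lower (median -0.51, with 4 higher without adult control 3), and 2 passed the filter through E13.5 alone. Of 369 ZFP zinc finger genes 20 were higher and 97 lower (median -0.33), but 97 were higher and 65 lower under quantile normalisation, where the median was 0.15. Lower ZFP genes numbered 154 without adult control 3 and 63 without E13.5 2 or E13.5 3. Of the 369, 25 passed the filter through E13.5 alone and 6 through adult control alone. Of 10 Ly6 genes, small surface proteins anchored by a lipid, 8 were higher and 1 lower (median 4.78, or 4.92 at the bound), and with a filter of 50 all 5 tested were higher; 7 of the 10 passed the filter through adult control alone. Among all genes 18.4% were higher and 31.7% lower.

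The chromosome pattern was also read in the adult libraries given Wnt3a or MS-275. Over all 7 adult libraries the median of chromosome 18, relative to the E13.5 mean and the median over all chromosomes, lay between -0.93 and -0.75, and that of chromosome 4 between -0.61 and -0.49. Among the widely expressed families of the ribosome, proteasome and their like, 4 members on chromosome 18 had a median of -0.50 and 13 members on chromosome 4 a median of -0.56. All 7 adult libraries are read against the same E13.5 mean, so their likeness cannot tell which group departs. The values are given with no explanation.

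Libraries that were most alike still differed by more than their counting error. The chi-square per gene of recovered reads, which is 1 for sampling noise alone, was 10.4 for adult control 1 and 2 and 5.06 for E13.5 2 and 3, against 241 and 271 for the pairs with adult control 3 and 83.8 and 84.8 for the pairs with E13.5 1. All 6 libraries were counted separately.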
